A study of Mus musculus with 4 samples.

Results

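The mitochondrial carriers of the SLC25 family and the 3 uncoupling proteins were examined in MA-10 mouse Leydig tumor cells after 3 hours of treatment. Members were taken by gene symbol, as every Slc25a gene with a number and Ucp1, Ucp2 and Ucp3, which gave 46 genes on 52 probes out of 18478 genes tested. MA-10 is an established cell line from a mouse Leydig cell tumor, the testicular cell type that makes androgens. The treated cells received 100 µM cordycepin, an adenosine analogue without the 3′ hydroxyl group, and the control cells received vehicle, which the sample labels call PBS and the published methods call DMSO. Each group had 2 arrays of a mouse whole-genome design, hybridised with total RNA of the bulk culture and read in 1 color, and no other group was measured. The sources do not say whether the duplicates were grown apart, so the p-values speak only of array-to-array spread within these cells, part or all of which may be technical. In bulk RNA, a smaller number of cells of some kind and less RNA per cell cannot be told apart.

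Carriers of this family sit mostly in the inner mitochondrial membrane and exchange nucleotides, phosphate, carboxylates, amino acids, cofactors and metal ions between the matrix and the cytosol, each built from a repeated fold of membrane helices. They supply the matrix with ADP and phosphate for ATP synthesis, carry acylcarnitine in for oxidation, and bring in the iron used for heme and iron-sulfur clusters. Steroid synthesis of Leydig cells starts at the inner mitochondrial membrane, where cholesterol is cleaved by an enzyme fed with electrons through an iron-sulfur protein. Cordycepin is known as a chain terminator of RNA synthesis and an inhibitor of polyadenylation.

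At 3 hours, 8 of the 46 carrier genes were lower in cordycepin-treated cells and none was higher. Slc25a25, a calcium-regulated ATP-Mg/phosphate carrier, fell most, followed by Slc25a44, Slc25a45, Slc25a29, Slc25a33, Slc25a30 and Slc25a37. The remaining one, Slc25a42, was under the detection limit on every array. The calls came from limma fitted on log2 normalized intensity over the 24319 probes whose 4 values were all above 0, at a Benjamini-Hochberg adjusted p under 0.05. The 8 lower genes were 17.4% of the members, beside 14.7% of all genes tested, and the count of 0 higher genes stood beside 0.942% of all genes. At an unadjusted p under 0.05, 1 member, Slc25a39, was higher (2.17%, beside 2.18% of all genes). The share of lower members was close to the background, and the values below give the carriers one by one.

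Detection separated the members before any comparison. By the deposited detection p-value, taken at under 0.05, 37 members were detected on all 4 arrays, 3 on some arrays and 6 on none. The 6 undetected members were Ucp1, Ucp2, Ucp3, Slc25a21, Slc25a41 and Slc25a42. Slc25a25, Slc25a2 and Slc25a48 were the members detected on some arrays only. Among the 39 members with both arrays of some group over the detection limit, 7 were lower (17.9%) and 0 higher. Of the 11283 genes that met the same condition, 22.1% were lower and 0.505% higher. Slc25a25 and Slc25a2 met it through the control arrays only, a route that lets genes high in control alone into both shares.

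The regions upstream of the lower genes are shown next, as a description of single genes. Whether these genes share a control was not tested. RefSeq promoter windows (build GRCm38.p6) were at hand for 36 of the 46 members, among them 5 of the 7 detected lower genes, and the 250 bases before each annotated start were searched on both strands. Each sequence runs 5′ to 3′ on the strand of its gene, ends at the base before the start, and carries capitals at the letters CCAAT (or its complement ATTGG) and TGACG (or its complement CGTCA). The first is 1 of 3 annotated Slc25a25 starts and spans chr2:32424067-32424316 on the minus strand. The others span chr12:108835877-108836126 on the minus strand for Slc25a29, chr14:75787038-75787287 on the minus strand for Slc25a30 and chr4:149774268-149774517 on the minus strand for Slc25a33.
Slc25a25: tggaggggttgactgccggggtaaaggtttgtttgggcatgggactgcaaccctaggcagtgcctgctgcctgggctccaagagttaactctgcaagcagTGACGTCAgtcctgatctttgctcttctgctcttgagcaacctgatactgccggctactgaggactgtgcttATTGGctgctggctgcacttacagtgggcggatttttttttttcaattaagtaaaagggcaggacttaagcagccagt
Slc25a29: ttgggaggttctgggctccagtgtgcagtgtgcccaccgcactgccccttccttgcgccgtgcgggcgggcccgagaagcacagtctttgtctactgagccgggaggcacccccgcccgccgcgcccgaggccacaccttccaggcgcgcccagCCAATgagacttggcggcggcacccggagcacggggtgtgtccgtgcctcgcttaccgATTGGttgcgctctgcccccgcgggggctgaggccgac
Slc25a30: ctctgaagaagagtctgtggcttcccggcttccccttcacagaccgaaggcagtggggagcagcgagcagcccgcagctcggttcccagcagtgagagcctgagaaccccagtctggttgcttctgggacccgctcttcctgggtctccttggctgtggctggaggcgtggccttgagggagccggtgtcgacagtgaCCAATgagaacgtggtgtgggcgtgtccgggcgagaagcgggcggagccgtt
Slc25a33: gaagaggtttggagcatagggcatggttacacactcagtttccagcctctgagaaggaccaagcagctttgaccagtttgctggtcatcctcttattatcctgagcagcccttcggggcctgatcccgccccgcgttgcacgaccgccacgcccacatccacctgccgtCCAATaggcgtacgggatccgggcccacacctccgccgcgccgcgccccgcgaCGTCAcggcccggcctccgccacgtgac

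The letters CCAAT, read by the factor NF-Y, stood in the windows of 4 of these 5 lower genes, all but Slc25a45 (chr19:5877572-5877821, plus strand), of 17 of the 36 members, and in 33.8% of 32851 RefSeq promoter windows of the same length. Members and lower genes were counted by gene and the share of all windows by window, so these units are unlike for every motif here. In Slc25a25 the 3 annotated starts were counted together, which gives a gene with several starts more room for a match. By window, CCAAT was in 6 of the 7 windows of the lower genes. The full cAMP response element TGACGTCA began 150 bases before the Slc25a25 start shown above and was absent from the windows of the other annotated Slc25a25 starts. It was present in 2 of the 36 members, and occurred in 1.55% of all windows. Its 5-letter part TGACG, which overlaps the full element on each strand, stood in the windows of Slc25a25 and Slc25a33, of 11 members, and in 17.8% of all windows. The GC box GGGCGG was found in all 5 lower genes with a window, in 24 of the 36 members and in 32.7% of all windows. By window, it was in 6 of the 7 windows of the lower genes. TATAAA was found in 2 members and none of the 5, beside 12.4% of all windows. The ETS letters CCGGAAG were found in 5 members and none of the 5, beside 6.91%. The E-box CACGTG was found in 7 members, of which Slc25a33 was lower, beside 6.02%. The NRF1 motif was found in no member, beside 0.782%. These are matches of letters in short windows, with no measurement of binding.

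The detected probes differed between duplicates in a way that bears on every value below. The 2 control arrays differed by a median of 0.50 on the log2 scale over all probes tested, with control replicate 1 higher, and the 2 cordycepin arrays by 0.03. Control replicate 1 was above control replicate 2 for 39 of the 39 detected members, with a median gap of 0.50 on the log2 scale and a range of 0.34 to 1.34, and the cordycepin arrays lay 0.0025 to 0.43 apart with a median of 0.11. Correlations of log2 intensity across probes were 0.993 between the cordycepin arrays, 0.992 between the control arrays and 0.967 to 0.968 between groups. The label of the cells was checked on marker genes. All 8 of the Leydig cell markers tested were detected. Hsd3b1, the enzyme that makes progesterone, had 11518 and 10463 with cordycepin and 14382 and 10784 in control. Lhcgr and Cyp17a1 of the same list were dim, at 25.6 to 30.9 and 31.1 to 66.4. Of 6 germ cell markers, 4 were not detected on any array, Dazl, Sycp3, Prm1 and Tnp1. Ddx4 and Acrv1 were detected on every array, at 27.3 to 41.2 and 27.5 to 34.5. All 4 macrophage markers tested, 4 of 6 Sertoli markers and 2 of 5 endothelial and peritubular markers were detected too. Clu of the Sertoli list was bright, with 17601 and 8368 with cordycepin and 17952 and 13734 in control. Detection of the markers thus did not single out 1 cell type. Nr5a1 of the Leydig list, Sox9 of the Sertoli list and Cd14 of the macrophage list were lower. Fdxr of the Leydig list also passed, at 7146 and 822 with cordycepin and 7877 and 6007 in control, where cordycepin replicate 2 alone was low, and it did not pass after median centring (adjusted p = 0.43). Summed intensity over the Leydig list was 26739 to 34042 with cordycepin and 33285 to 46221 in control. Over the germ cell list it was 74.4 to 75.5 with cordycepin and 77.2 to 88.1 in control, and over 4 macrophage markers 216 to 240 with cordycepin and 270 to 365 in control. Over 5 endothelial and peritubular markers it was 385 to 451 with cordycepin and 489 to 695 in control, and over the 6 Sertoli markers 9108 to 18404 with cordycepin and 14533 to 19115 in control. The part of these levels in the carrier results was not tested.

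**Figure D1:**
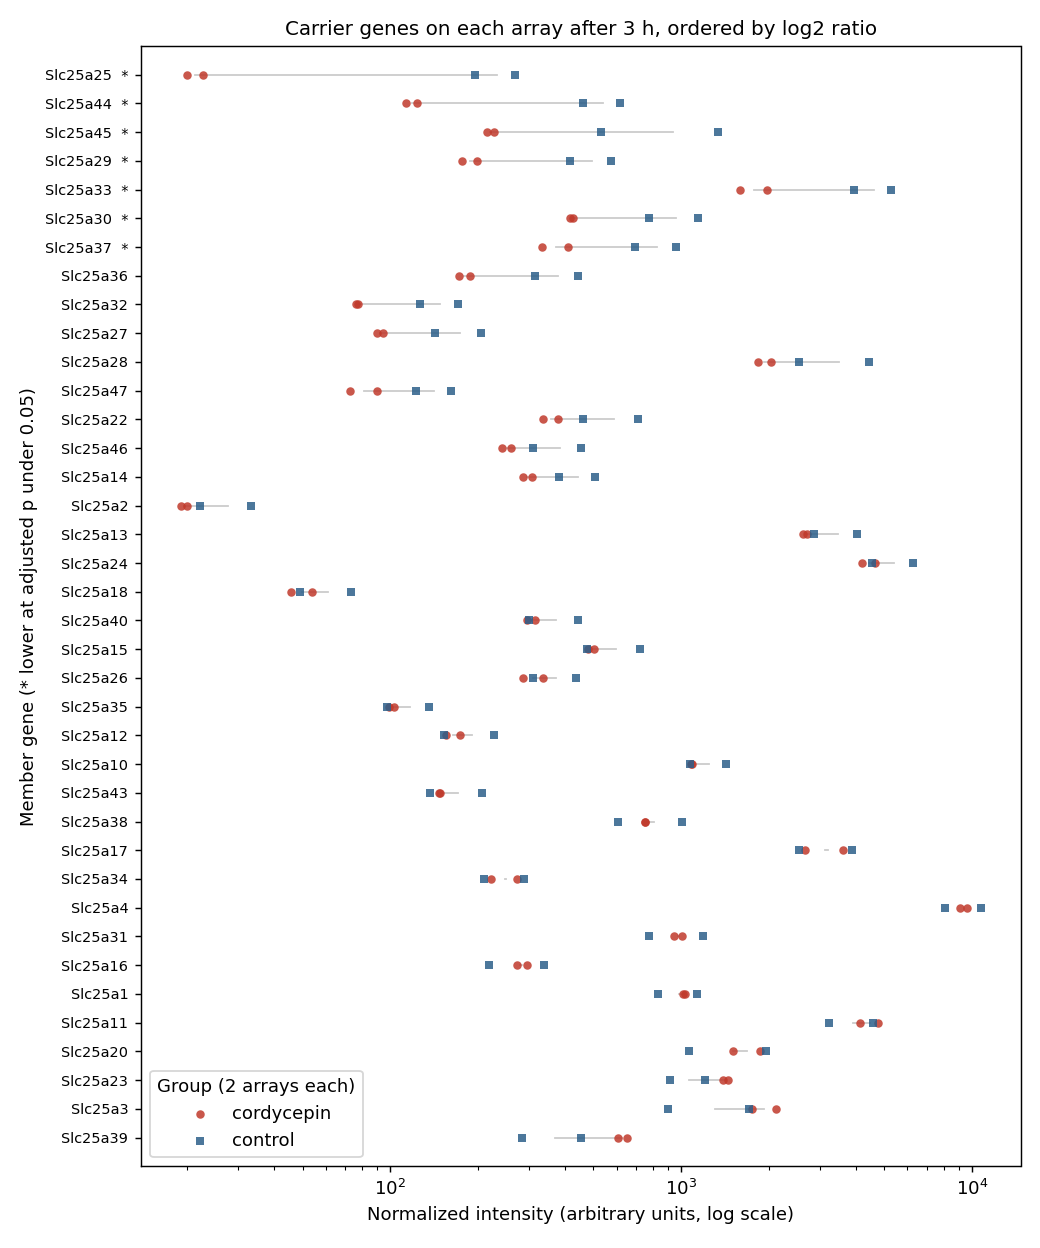
Normalized intensity (arbitrary units, log axis) of 38 detected carrier genes on each array, with circles for the 2 cordycepin arrays, squares for the 2 control arrays and a line between the group means; genes run by log2 ratio, and an asterisk marks the 7 with an adjusted p under 0.05. In the 7 marked genes both circles lie left of both squares, and control replicate 1 is the right-hand square in every gene drawn.

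The ATP-Mg/phosphate carriers load adenine nucleotides into the matrix and differ among themselves here. Slc25a25 had normalized intensities of 20.0 and 22.7 on the cordycepin arrays and 268 and 196 on the control arrays. Both cordycepin arrays were far below both control arrays, and cordycepin replicate 1 was under the detection limit. The log2 ratio was -3.43 with a standard error of 0.41, a 10.8-fold lower level (limma, adjusted p = 4.4e-15). With cordycepin replicate 1 raised to the lowest detected signal of its array, the level was 9.73-fold lower. Its relative Slc25a24 had 4650 and 4193 with cordycepin and 6277 and 4553 in control, groups that overlapped, with a log2 ratio of -0.28 (adjusted p = 0.90). Slc25a23, the third of these carriers that was detected, had 1396 and 1455 with cordycepin and 1208 and 914 in control, with a log2 ratio of 0.44 (adjusted p = 0.70). Both of its cordycepin arrays were above both control arrays, and it was singled out after its values were seen. Slc25a41 was not detected on any array.

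The ADP/ATP and phosphate carriers, which serve ATP synthesis directly, did not pass the test in either direction. Slc25a4, the ADP/ATP carrier of heart and muscle, had 9134 and 9624 with cordycepin and 10711 and 8086 in control. Both cordycepin values lay between the control values, and the log2 ratio was 0.01 (adjusted p = 0.995). Slc25a31, the ADP/ATP carrier known from germ cells, had a log2 ratio of 0.02. Slc25a3, which brings phosphate into the matrix, had 2114 and 1749 with cordycepin and 1711 and 901 in control, so the groups did not overlap, by a narrow margin. Its log2 ratio was 0.63 (adjusted p = 0.45), and it too was singled out after its values were seen. The remaining ADP/ATP carrier on the list, Slc25a5, was not analysed here.

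Among the 9 amino acid carriers, 2 were lower and 7 did not pass, with a median log2 ratio of -0.35. Slc25a44, which takes branched-chain amino acids into mitochondria, had 123 and 114 with cordycepin and 616 and 462 in control. The groups were far apart, with a log2 ratio of -2.17, a 4.50-fold lower level (limma, adjusted p = 2.1e-06). Slc25a29, a carrier of the basic amino acids arginine and lysine, had 199 and 176 with cordycepin and 575 and 415 in control. Again both cordycepin arrays were below both control arrays, with a log2 ratio of -1.38, 2.61-fold lower (adjusted p = 0.0066). Slc25a13, the aspartate/glutamate carrier citrin of the malate-aspartate shuttle, had 2720 and 2623 with cordycepin and 4034 and 2871 in control. The cordycepin values lay just under the lower control value, and the log2 ratio of -0.35 did not pass (adjusted p = 0.84). The ornithine carrier of the urea cycle, Slc25a15, and the glycine carrier needed for heme synthesis, Slc25a38, had log2 ratios of -0.25 and -0.06, and in both the groups overlapped.

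Of the 8 nucleotide and cofactor carriers tested, 2 were lower, and the median of -0.75 was the lowest of the role lists, whose medians went up to 0.22. Slc25a33, a carrier of pyrimidine nucleotides, had 1977 and 1591 with cordycepin and 5267 and 3935 in control. The control arrays were well above both cordycepin arrays, with a log2 ratio of -1.36, 2.57-fold lower (adjusted p = 0.0079). Its near relative Slc25a36, also a pyrimidine nucleotide carrier, had 188 and 172 with cordycepin and 442 and 314 in control. Those groups did not overlap either, but the log2 ratio of -1.05 missed the threshold (adjusted p = 0.065). At the fold and p thresholds of the study, a log2 ratio past 1 in size and an unadjusted p under 0.05, Slc25a36 counted as lower too, making 9 members beside 16.4% of all genes, and 0 members beside 1.2% in the other direction. Slc25a42, the carrier of coenzyme A, had 6.67 and 12.7 with cordycepin and 22.9 and 17.8 in control (adjusted p = 0.040). All 4 values were under the detection limit, so no fold is given, and it passed in 3 of the 10 alternative settings that tested it besides the methods' t-test, with an adjusted p of 0.14 after median centring and 0.29 from raw intensities.

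Slc25a17, a peroxisomal carrier of cofactors and so an exception to the mitochondrial place of the family, had 3607 and 2669 with cordycepin and 3863 and 2549 in control, groups that overlapped at a log2 ratio of -0.02. Slc25a32, linked to folate and FAD uptake, had a log2 ratio of -0.93 (adjusted p = 0.12), and Slc25a26, which imports S-adenosylmethionine, -0.24 (adjusted p = 0.94).

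The iron carriers mitoferrin 1 and mitoferrin 2, encoded by Slc25a37 and Slc25a28, both had lower values, and 1 of them passed. Slc25a37 had 410 and 334 with cordycepin and 964 and 696 in control, with a log2 ratio of -1.15, 2.21-fold lower (adjusted p = 0.036). Slc25a28 had 2034 and 1837 with cordycepin and 4426 and 2553 in control, with a log2 ratio of -0.80 (adjusted p = 0.24). In both genes the groups did not overlap, and in Slc25a28 the control arrays were themselves far apart. Slc25a39, which carries glutathione into the matrix, had 651 and 605 with cordycepin and 454 and 285 in control. Its cordycepin arrays were both above the control arrays, and its log2 ratio of 0.80, the highest among the members, did not pass the adjusted test (adjusted p = 0.23). It was named after its values were seen. Its relative Slc25a40 had a log2 ratio of -0.26.

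None of the 4 di- and tricarboxylate carriers passed, and neither did the carnitine/acylcarnitine carrier. Slc25a11, the oxoglutarate/malate carrier of the malate-aspartate shuttle, had 4762 and 4139 with cordycepin and 4572 and 3231 in control. The groups overlapped, with a log2 ratio of 0.21 (adjusted p = 0.95). The citrate carrier Slc25a1 and the dicarboxylate carrier Slc25a10 had log2 ratios of 0.08 and -0.19. Slc25a20, the carnitine/acylcarnitine carrier of fatty acid oxidation, had 1871 and 1505 with cordycepin and 1956 and 1063 in control, again overlapping, with a log2 ratio of 0.22 (adjusted p = 0.95).

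The uncoupling proteins proper were not detected. Ucp1, which makes heat in brown fat, had intensities of 3.33 and 1.82 with cordycepin and 3.43 and 1.78 in control. Ucp2 had 4.44 and 5.45 with cordycepin and 5.72 and 4.44 in control, and Ucp3 had 3.33 and 3.64 with cordycepin and 3.43 and 3.55 in control. All 12 of these values were under the detection limit. Their near relative Slc25a30, also called kidney mitochondrial carrier protein 1, was detected on every array at 424 and 414 with cordycepin and 1142 and 779 in control. The cordycepin arrays were almost level and both below control, with a log2 ratio of -1.17, 2.25-fold lower (adjusted p = 0.031). The brain uncoupling proteins Slc25a27 and Slc25a14 had log2 ratios of -0.89 (adjusted p = 0.16) and -0.57 (adjusted p = 0.55).

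Among the 7 carriers whose substrate was not taken as settled, 1 was lower. Slc25a45 had 227 and 215 with cordycepin and 1343 and 531 in control. Both cordycepin arrays were below both control arrays, and the control arrays were 1.34 apart on the log2 scale, the widest gap of any detected member. Its log2 ratio was -1.94, 3.83-fold lower (limma, adjusted p = 3.4e-05), with a spread pooled over all probes. It missed the threshold from the raw intensities (limma, adjusted p = 0.083) and with a pseudocount of 16 (limma, adjusted p = 0.14). A t-test on the spread of this gene alone gave an unadjusted p of 0.10. The log2 ratio was -1.27 without control replicate 1 and -2.61 without control replicate 2. The other detected members of this list had log2 ratios from -0.80 in Slc25a47, a carrier known from liver, to 0.00 in Slc25a34, and Slc25a48 was detected on 1 control array only.

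**Figure D2:**
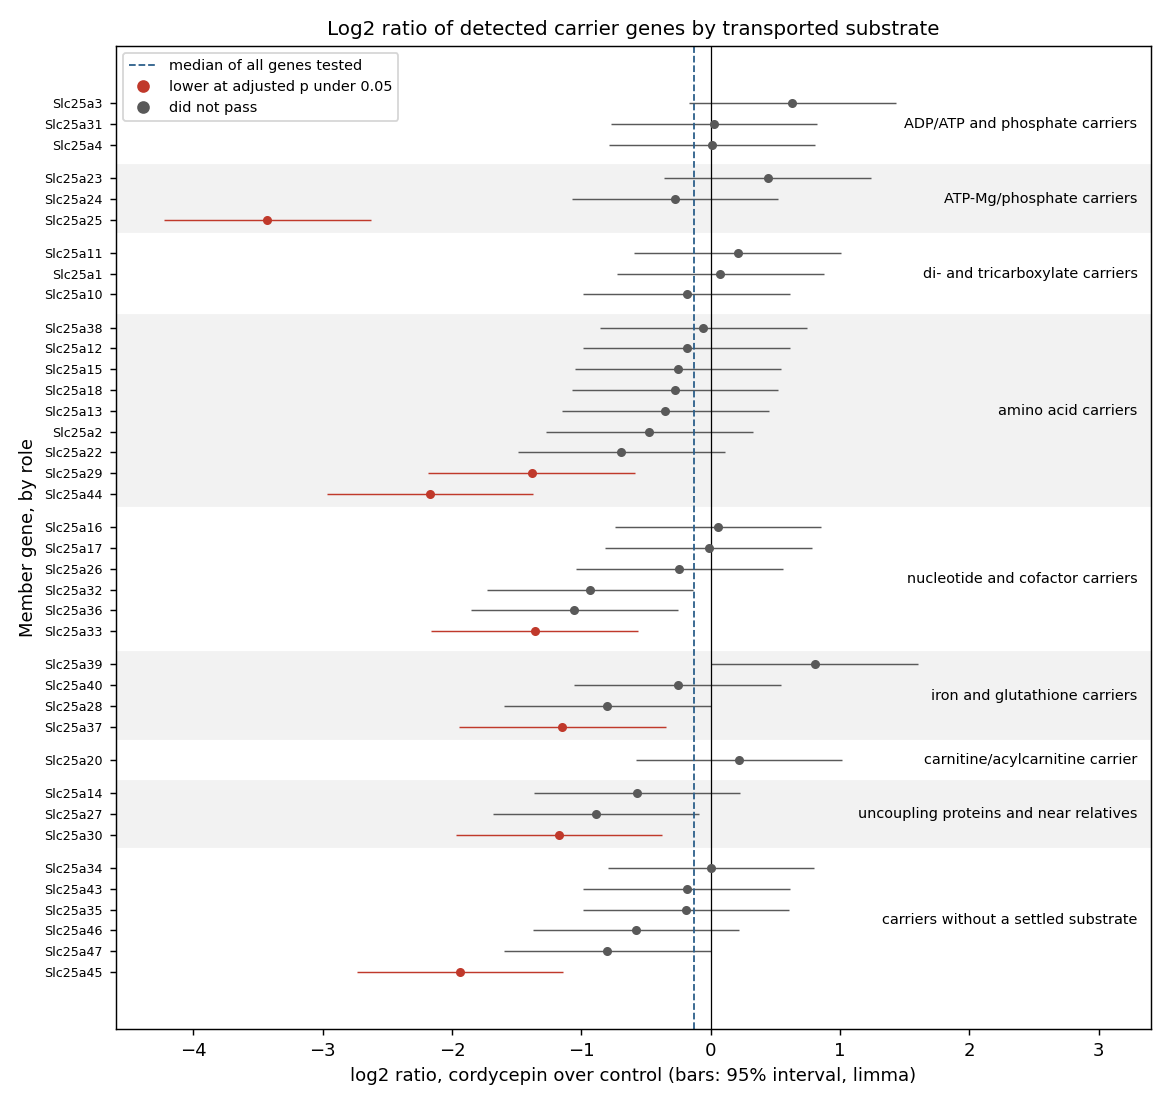
Log2 ratio of cordycepin over control for 38 detected carrier genes, grouped by transported substrate, with 95% intervals from limma as bars and a dashed line at the median of all genes tested, -0.13. That line includes undetected genes, and the median over all genes detected by the rule used for the carriers was -0.31. The 7 genes with an adjusted p under 0.05 are spread over 6 of the 9 role lists, and in no list did every member pass.

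Across the members, the 32 detected genes that did not pass had log2 ratios from -1.05 to 0.80, of which 22 were negative and 10 positive. The fit gave every probe the same standard error, 0.41, so a 95% interval reached 0.80 to either side of each log2 ratio, and the smallest called change of any gene was 1.10 in size. A change under about that size could not pass in this fit. Smaller changes passed on the same arrays under other scalings. After median centring these included Slc25a27 at -0.55 (limma, adjusted p = 0.021) and Slc25a1 at 0.41 (limma, adjusted p = 0.031). The median log2 ratio was -0.25 over the members and -0.13 over all genes, and -0.27 and -0.31 over those detected. Groups did not overlap for 19 of 46 members in the lower direction (41.3%, beside 35.5% of all genes) and for 3 in the higher direction (6.52%, beside 8.64%). The 7 detected lower genes lay on 6 chromosomes, with RefSeq gene spans of 7.97 to 43.7 kb and a median of 29.5 kb, and the 32 others spanned 1.35 to 176 kb with a median of 18.9 kb.

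Close relatives were also compared within each array, where a shift of the whole array cancels. In each of 6 pairs, chosen after the values were seen, the log2 difference between the relatives did not overlap between cordycepin and control arrays. How often other gene pairs fail to overlap was not computed, so this count is no result about the carriers. For Slc25a25 against Slc25a24 the cordycepin difference minus the control difference was -3.15, and -2.98 from cordycepin replicate 2 alone, since Slc25a25 was under the detection limit on the other array. For Slc25a40 against Slc25a39 it was -1.06 (-1.12 to -0.99 over the 4 combinations of a cordycepin and a control array). The other values were smaller in size, -0.42 for Slc25a22 against Slc25a18, both glutamate carriers, -0.35 for Slc25a37 against Slc25a28, -0.31 for Slc25a33 against Slc25a36 and -0.16 for Slc25a13 against Slc25a12. With 2 arrays against 2, a two-sided exact permutation test cannot give a p under 0.333, and each of the 6 pairs gave that value.

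The direction of the middle of the family depended on how the arrays were scaled. The median ratio of all probes tested was -0.10 with the authors' scaling, 0.24 after each array was centred on its median, 0.16 after quantile normalization and -0.42 after centring on ribosomal protein genes. The median of the members moved with it, to 0.091, 0.16 and -0.57. Median centring left 10 members lower and 6 higher, beside 19.8% and 19.9% of all genes, the higher ones being Slc25a1, Slc25a3, Slc25a11, Slc25a23, Slc25a39 and the undetected Slc25a41. Quantile normalization left 12 lower and 18 higher of 40 members, beside 27.7% and 40.3%, and ribosomal protein centring 28 lower and 1 higher, beside 47.2% and 1.21%. All 7 detected lower genes were lower under these 3 scalings, though with a smaller change after quantile normalization, where Slc25a29 had -0.57, Slc25a30 -0.54 and Slc25a37 -0.48, and Slc25a39 was higher under all 3. Raw intensities, detected probes only, a pseudocount, an intensity trend and the mean over the probes of a gene left 0 members higher. Raw intensities gave 10 lower (17.9% of all genes, with 1.04% higher), a fit on detected probes 10 of 39 (28.7%, with 0.789% higher), and a pseudocount of 16 gave 4 (9.71%, with 0.162% higher). An intensity trend gave 9 (16.7%, with 0.785% higher) and the mean over the probes of a gene 9 (15.5%, with 1.1% higher). Slc25a3 was higher after median centring and quantile normalization and did not pass after ribosomal protein centring.

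**Figure D3:**
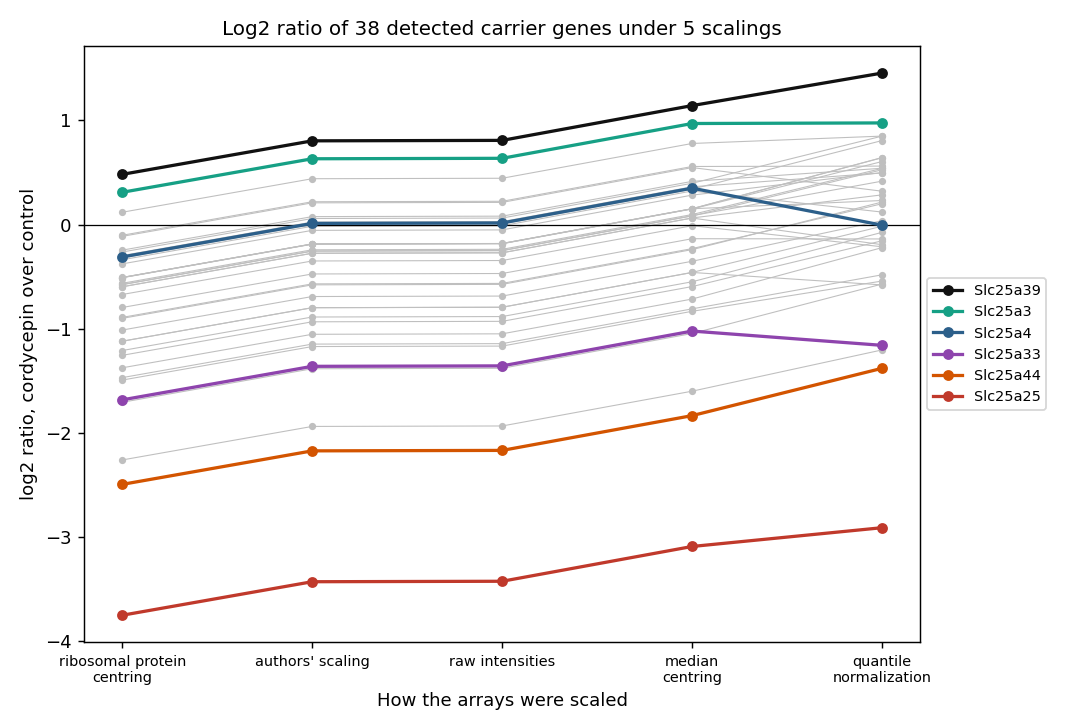
Log2 ratio of cordycepin over control for 38 detected carrier genes (lines) under 5 ways of scaling the arrays, with 6 genes in color. Slc25a25, Slc25a44 and Slc25a33 stay below 0 and Slc25a39 and Slc25a3 above 0 in every column, while Slc25a4 lies near 0 and changes sign between columns.

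Leaving out 1 array changed the count of lower members. It was 3 without cordycepin replicate 1 and 3 without cordycepin replicate 2, beside 7.84% and 7.31% of all genes, and the genes were Slc25a25, Slc25a44 and Slc25a45 both times. None was higher in either case, beside 0.254% and 0.271%. Without control replicate 1, 9 were lower and 3, Slc25a3, Slc25a39 and Slc25a48, were higher, beside 15.3% and 7.57%. Without control replicate 2, 17 were lower and 0 higher, beside 29.8% and 0.936%. The group left with 1 array is assumed to vary like the other. For Slc25a48, the values left without control replicate 1 were all under the detection limit, 21.1 and 20.0 with cordycepin and 10.7 in control.

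Other genes of mitochondria gave a setting for the carriers. The counts below stand beside 14.7% of all genes lower and 0.942% higher. After median centring these shares were 19.8% and 19.9%. Of 72 oxidative phosphorylation genes, 0 were lower and 0 higher, with a median log2 ratio of 0.26, and median centring made 51 of them higher. Genes on the import path of carriers, from the outer membrane to the inner one, gave 0 of 9 in either direction with a median of 0.07. The 9 were Tomm22, Tomm40, Tomm6, Tomm7, Timm8b, Timm9, Timm10, Timm13 and Timm22. After median centring, 4 of the 9 were higher, among them Tomm7, which was not detected on any array. Timm22, of the inner membrane insertase, had a log2 ratio of -0.48 (limma, adjusted p = 0.63). Voltage-dependent channels and other outer membrane relatives gave 0 of 5, and 3 of these were higher after median centring. Among 12 regulators of mitochondrial biogenesis, 3 were lower and none higher, with a median of -0.77, and median centring made 6 lower and 1 higher. Pprc1, a coactivator of the PGC-1 family, had 51.1 and 54.5 with cordycepin and 515 and 321 in control, with a log2 ratio of -2.95 (adjusted p = 2.6e-11). Its relative Ppargc1b had 52.2 and 50.0 with cordycepin and 173 and 114 in control, at -1.46 (adjusted p = 0.0037). Ppara, a nuclear receptor that drives fatty acid oxidation genes in liver, had 17.8 and 13.6 with cordycepin, neither detected, and 182 and 112 in control, at least 6.31-fold lower against the lowest detected signal of each cordycepin array (adjusted p = 3.3e-13). Among 276 other solute carrier genes, 43 (15.6%) were lower and 1 (0.362%) was higher, with a median of -0.21.

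**Figure D4:**
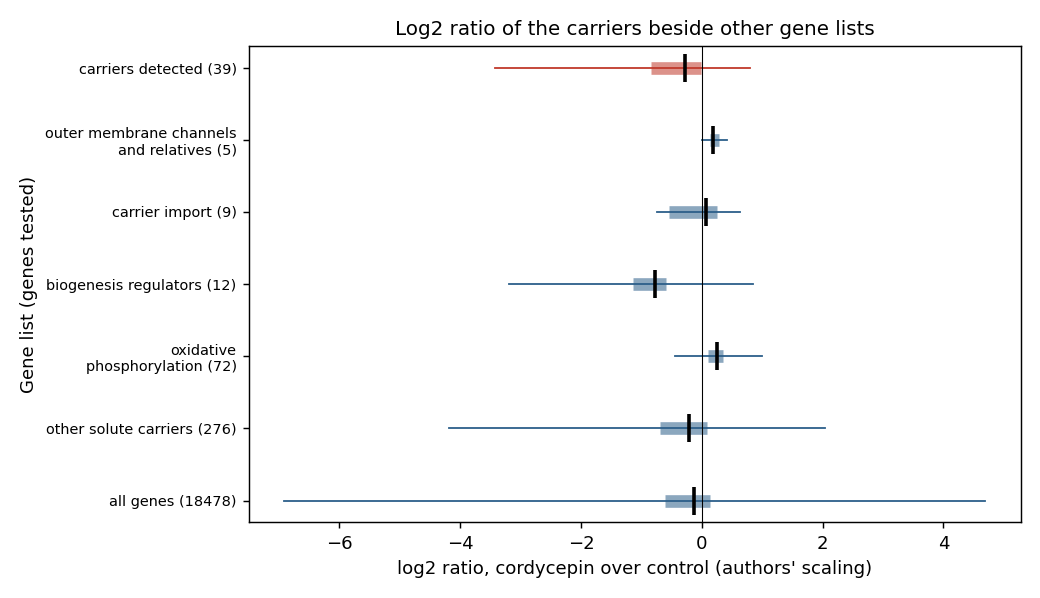
Log2 ratio of cordycepin over control for the 39 detected carriers, 5 other gene lists and all genes tested, with the number of genes in brackets, a thick bar from the first to the third quartile, a black tick at the median and a thin line over the whole range. The carriers have a median of -0.27 and reach down to -3.43, while oxidative phosphorylation has a median of 0.26 and a narrow range. The bar for all genes includes undetected ones. All genes detected by the rule used for the carriers, which are not drawn, had a median of -0.31.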

How the data were processed

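RNA of 4 cultures or aliquots of MA-10 cells, 2 per group by the sample labels, was read on 1-color arrays with 26423 probes. The authors deposited, per probe and array, a raw intensity, a normalized intensity and a detection p-value, with a flag score for each spot; the normalization method is not given in the sources used here, and within an array the normalized intensity is the raw one times a constant. The deposited table also holds the authors' log2 ratios and p-values for the comparison, which were not used. The labels name Cy5 in one field and a radioactive label primed with oligo-dT in another, and one field gives the dose in mg/mL.

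From the deposited normalized intensity, log2 values were fitted with limma 3.58.1 (lmFit, eBayes) in R 4.3.3 over 24319 probes above 0 on every array, leaving out 2104, with Benjamini-Hochberg adjustment over all of them. The estimated spread was pooled fully over probes. A gene was read from its probe with the highest mean, and probes with several symbols (237) or none (3633) were left out of gene counts. No pseudocount was used. All 46 members matched RefSeq by symbol. The number of arrays limits the precision.

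Members and lists were chosen with earlier results of these data known. Array values were given for members that passed, the 8 with the highest mean intensity, the member with the highest mean in each role list, the Ucp genes, and at most 3 genes per other list; further names are examples, and the values of 1 member are not reported here, nor drawn in the plots of single genes. Alternatives were raw intensities, centring on the median or on ribosomal protein genes, quantile normalization, detected probes only, a pseudocount of 16, an intensity trend, the methods' t-test, probe averaging, and leaving out each array.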

Additional observations from a re-analysis of the deposited data

How the results depend on the processing

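Slc25a25 and Slc25a44 passed under every alternative run except the methods' t-test, with a highest adjusted p of 0.021 for each. The count of lower members, 8, was within 1.5 times under median centring, raw intensities, quantile normalization, detected probes only, the intensity trend and probe averaging. It was 28 with ribosomal protein centring, 4 with a pseudocount of 16 (Slc25a25, Slc25a29, Slc25a33 and Slc25a44) and 0 with the methods' t-test, which called 5 members lower at an unadjusted p under 0.05 (10.9%, beside 14.5% of all genes) and no gene after adjustment, and ranged from 3 to 17 when 1 array was left out. The count of higher members, 0, was 6 with median centring, 1 with ribosomal protein centring, 18 with quantile normalization, and ranged from 0 to 3 when 1 array was left out (3 without control replicate 1). The median log2 ratio of the members, -0.25, was 0.091 with median centring, -0.57 with ribosomal protein centring, 0.16 with quantile normalization and from -0.50 (without control replicate 2) to 0.020 (without control replicate 1) when 1 array was left out. Under quantile normalization, 9 members with a negative ratio were called higher, at 0.23 (Slc25a10), 0.64 (Slc25a12), 0.42 (Slc25a15), 0.54 (Slc25a26), 0.60 (Slc25a35), 0.50 (Slc25a38), 0.53 (Slc25a40), 0.64 (Slc25a43) and 0.22 (Slc25a46). The cause was not tested. No paired analysis was possible because the labels give each array a number of its own. Signal under the detection limit left Slc25a42 and the Ucp genes without a fold.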

Other observations

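Some genes of the carrier family stand on the array under symbols outside the naming rule used here. Mcart1, which RefSeq now calls Slc25a51 and which is known as a carrier of NAD in human cells, had 1590 and 1435 with cordycepin and 2038 and 1326 in control, overlapping groups with a log2 ratio of -0.12. Mcart6, now Slc25a53, was not detected on any array. A further Slc25a3 probe, shared with another locus name, had 5829 and 5655 with cordycepin and 5766 and 4268 in control, with a log2 ratio of 0.21 (limma, adjusted p = 0.95), beside 0.63 for the Slc25a3 probe used above. Mtch1, a distant relative in the outer membrane, had 14930 and 14508 with cordycepin and 11436 and 10591 in control, groups that did not overlap, with a log2 ratio of 0.42 (adjusted p = 0.73).

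Slc25a20 had a pair of detected probes, and their log2 ratios were 0.22 and 0.14. The probes of Slc25a46 gave -0.58 and -0.10, and neither passed. In Slc25a10 and Slc25a31 the dimmer probe was not detected on any array.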
